A study of Bos taurus with 9 samples.

Results

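Rectal tissue libraries with little epithelial RNA were compared with libraries rich in it, by the level of AGR2 (ENSBTAG00000024406), an endoplasmic reticulum (ER) protein of secretory epithelial cells. Of the 9 libraries in the series, 4 had AGR2 below 1000 CPM (reads of a gene as a share of all reads on genes, scaled to a common total) and are called epithelium-poor, and 5 had AGR2 above 3000 CPM and are called epithelium-rich. The study compared steers that shed E. coli O157 in high numbers (super-shedders, SS) with steers negative for it (non-shedders, NS), all of them British × Continental feedlot steers on a barley-based finishing diet. The labels give neither the ages of the steers nor any treatment beyond this. Biopsies were taken at slaughter, just proximal to the rectoanal junction (RAJ). RNA came from powdered whole tissue, so no cell type was isolated, and each library stands for 1 steer. The epithelium-poor libraries came from NS 242, SS 274, SS 294 and SS 299, and the epithelium-rich libraries from NS 108, NS 152, NS 165, SS 287 and SS 310. Shedding status therefore crossed the division only in part, with 1 NS and 3 SS libraries on the epithelium-poor side and 3 NS and 2 SS libraries on the other.

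The libraries were chosen by their AGR2 values, which are given as a description without a test. AGR2 stood at 395 CPM in NS 242, 144 in SS 274, 30.2 in SS 294 and 832 in SS 299, and at 4133 CPM in NS 108, 3818 in NS 152, 3348 in NS 165, 5738 in SS 287 and 5129 in SS 310. The value nearest below the lower threshold was that of SS 299 and the value nearest above the upper threshold was that of NS 165, with no library between them. AGR2 was left out of the lists, the counts of called genes and every test between the sides below. Each test asks whether another gene went with AGR2 across these 9 libraries, and none compares SS with NS. Because the sides were drawn from a measured value, the counts of genes called describe this division of these libraries and do not stand for a condition.

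The number of reads on genes went with the division. The reads on genes, recovered from the CPM, numbered 8580654 in NS 242, 5412523 in SS 274, 7492386 in SS 294 and 7101669 in SS 299, and 12278503 in NS 108, 10437925 in NS 152, 10655374 in NS 165, 11807195 in SS 287 and 11521214 in SS 310. Every epithelium-poor library thus had fewer reads on genes than every epithelium-rich library, and SS 274 had the fewest of all. The totals of sequenced and of mapped reads that the study gives did not follow the division. NS 152 was below NS 242, SS 294 and SS 299 in both totals, and SS 274 had the lowest share of reads mapped. A count of 3 reads corresponded to 0.244 CPM in NS 108 and 0.554 CPM in SS 274, so genes below about that level carry large counting error. Genes with a value above 0 numbered 17209 to 18106 in the epithelium-poor libraries and 17586 to 18387 in the epithelium-rich libraries, and these ranges overlapped.

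**Figure D1:**
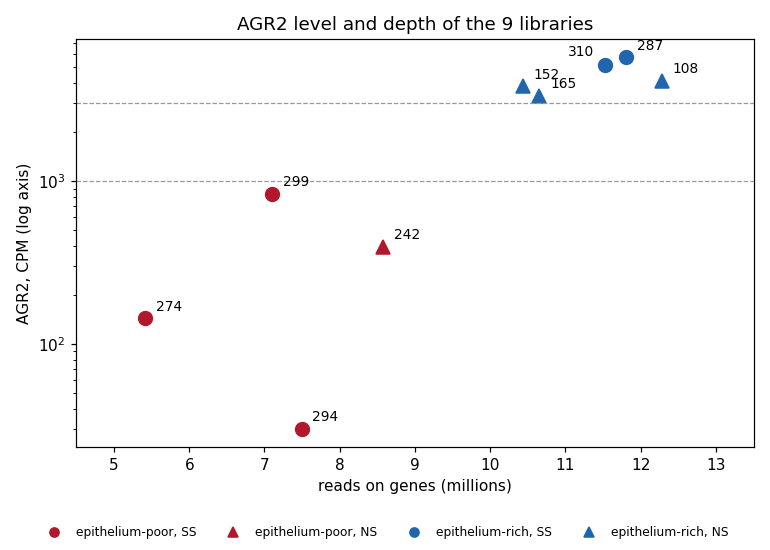
AGR2 level (CPM, log axis) against reads on genes for each of the 9 libraries, labelled by steer, with circles for SS and triangles for NS and dashed lines at the thresholds of 1000 and 3000 CPM. The 4 epithelium-poor libraries lie at 30.2 to 832 CPM and are all to the left of the 5 epithelium-rich libraries, which lie at 3348 to 5738 CPM.

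The rectal mucosa is lined by a simple epithelium folded into crypts, in which absorptive colonocytes, mucus-making goblet cells and hormone-making enteroendocrine cells arise from dividing cells near the crypt base. Beneath it lie a lamina propria of fibroblasts, vessels and immune cells with lymphoid follicles, a thin sheet of smooth muscle, a looser submucosa that can hold fat, and the outer muscle coat. In whole tissue, the RNA of each of these layers makes up a share of a fixed total, so a larger share of one lowers the shares of the others.

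On log2(CPM + 0.5), limma called 440 of 15409 genes higher (2.86%) and 783 lower (5.08%) in the epithelium-poor libraries (called where the adjusted p was under 0.05 and the log2 difference was beyond 1 either way). The added 0.5 shrinks differences between small CPM values. The groups did not overlap in 1097 genes that were higher (7.12%) and in 1400 genes that were lower (9.09%). Only 2049 of the genes tested had a name, and these leaned towards lower values, with 30 called higher (1.46%) and 208 called lower (10.2%). Among the named genes, the groups did not overlap in 68 that were higher (3.32%) and in 453 that were lower (22.1%). The median log2 difference was 0.01 over all genes tested and -0.22 over the named genes, and the lists below are to be read against these figures. The balance of directions depended on the tool, since edgeR on the recovered reads called 575 genes higher and 481 lower, and DESeq2 called 1338 higher and 987 lower.

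The counts rested on single libraries. Without NS 108, NS 152, SS 287 or SS 310, each of them epithelium-rich, limma called no gene, with smallest adjusted p of 0.0549, 0.0627, 0.0668 and 0.0718 and with 4308, 4261, 3953 and 4113 genes at an unadjusted p below 0.05, and no other tool was run without them. Every limma call named below is therefore lost without any 1 of these 4 libraries. Without NS 165, SS 274 or SS 294 it called 96, 21 and 117 genes higher and 254, 105 and 459 lower. Without SS 299, the library nearest the threshold, it called 856 higher and 1361 lower, and without NS 242 it called 605 and 949. In every omission, all 1223 genes called with all libraries kept the sign of their difference, though these fits share most of their libraries. With all libraries thinned to the 5412523 reads of SS 274, limma called 400 genes higher and 752 lower, among them 348 and 719 of the genes called at full depth. Of the 32 called genes whose differences are printed below, KRT19, PYY and S100A2 were the 3 still called with sample quality weights, and S100A2 was the 1 still called without SS 274. Where 1 of these 32 lost its call, its log2 difference stayed within 1.5 times the main value. The exceptions were PIGR by edgeR and by DESeq2 and LAMA4 within the SS libraries.

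Genes expressed throughout the epithelium were lower in the epithelium-poor libraries. Of 25 pan-epithelial genes tested, 22 were called lower and none higher, with a median log2 difference of -3.12, while edgeR called 7 lower and DESeq2 22. Without NS 165, NS 242 or SS 274, limma called 5, 14 and 3 of them lower, and with shedding status as a covariate it called 8. EPCAM, an adhesion molecule of epithelial cells, stood at 92.2 CPM in NS 242, 115 in SS 274, 11.3 in SS 294 and 572 in SS 299 among the epithelium-poor libraries, and 817 CPM in NS 108, 1195 in NS 152, 951 in NS 165, 1136 in SS 287 and 1171 in SS 310 among the epithelium-rich libraries. All 4 epithelium-poor libraries were below all 5 others, SS 294 by far the lowest and SS 299 the nearest to them, and the mean was 198 ± 253 CPM (SD, n = 4) against 1054 ± 164 CPM (SD, n = 5). The log2 difference of EPCAM was -3.50 ± 0.86 (SE, limma adjusted p = 0.0367), and its exact permutation p = 0.0159, the smallest that a two-sided test of 4 against 5 libraries can give. EPCAM was not called with the covariate, without NS 165 or SS 274, or by edgeR, where its log2 difference was -3.55, -3.53, -3.61 and -2.48. In whole tissue, fewer cells of a type and less RNA per cell cannot be told apart.

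KRT20, a keratin of differentiated intestinal epithelium, stood at 33.7 CPM in NS 242, 50.1 in SS 274, 2.27 in SS 294 and 113 in SS 299 among the epithelium-poor libraries, and 237 CPM in NS 108, 269.9 in NS 152, 199 in NS 165, 289.7 in SS 287 and 303 in SS 310 among the epithelium-rich libraries. The order of the epithelium-poor libraries was the one seen for EPCAM, with SS 299 between the remaining epithelium-poor libraries and the epithelium-rich range. Its log2 difference was -3.25 ± 0.86 (SE, limma adjusted p = 0.0437), again with no overlap in 4 of 4 libraries, and it was -2.15 without SS 294. KRT19, a keratin of simple epithelia, stood at 143 CPM in NS 242, 94 in SS 274, 11.5 in SS 294 and 489 in SS 299, against 1249.6 to 1986 CPM in the epithelium-rich libraries, and its log2 difference of -4.04 ± 0.84 (SE, limma adjusted p = 0.0294) was the lowest in this list. PIGR, the receptor that carries dimeric IgA across the epithelium, stood at 720.5 CPM in NS 242, 389 in SS 274, 82.2 in SS 294 and 8191 in SS 299, against 6217 to 13499 CPM. SS 299 lay inside the epithelium-rich range for PIGR and the other 3 lay below it, and its log2 difference was -3.88 ± 1.05 (SE, limma adjusted p = 0.0449), with -2.17 by edgeR and by DESeq2. None of these 3 genes was called without NS 165 or SS 274. KRT20 and PIGR were also not called with status as a covariate, without NS 242, without the filter or by edgeR, and PIGR not without SS 294 or by DESeq2. EZR, a linker of membrane and actin and a further member of the list, differed least, at 512 CPM in NS 242, 229 in SS 274, 159.9 in SS 294 and 263 in SS 299 against 402 to 612 CPM, and it was not called. The 25 genes summed to 2572 CPM in NS 242, 2659 in SS 274, 616 in SS 294 and 13820.4 in SS 299, against 16617 to 26421 CPM in the epithelium-rich libraries. No member was at 0 in any library, so epithelial RNA was present in all 9, and the label epithelium-poor holds by degree, least so for SS 299. SS 294 was the lowest of the 9 libraries in 24 of the 25 genes.

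Goblet cell genes were lower in all 4 epithelium-poor libraries. All 8 named members (of 22 listed) had non-overlapping groups and 7 were called lower by limma, 3 by edgeR and 8 by DESeq2, with a median log2 difference of -3.69. Without NS 165 limma called 1 of them lower, without SS 274 it called 0, and with status as a covariate 3. The genes of the gel-forming mucin MUC2 and of its partner FCGBP had no name here and were not analysed. SPINK4, a protease inhibitor of goblet cells, stood at 93.5 CPM in NS 242, 11.3 in SS 274, 5.07 in SS 294 and 222 in SS 299 among the epithelium-poor libraries, and 468 CPM in NS 108, 549 in NS 152, 756 in NS 165, 1439 in SS 287 and 1818 in SS 310 among the epithelium-rich libraries. The 3 lowest values were those of SS 294, SS 274 and NS 242, and the log2 difference was -4.67 ± 0.996 (SE, limma adjusted p = 0.0303). CLCA1, a metalloprotease secreted with mucus, stood at 409.9 CPM in NS 242, 805 in SS 274, 40.8 in SS 294 and 3531 in SS 299, against 3929.6 to 9673 CPM. SS 299 was just below the lowest epithelium-rich value, and the log2 difference of -3.49 ± 1.02 (SE, limma adjusted p = 0.0544) missed the threshold although the groups did not overlap. It was -2.32 without SS 294 and -2.27 by edgeR and by DESeq2, and CLCA1 was called with TMM or median-of-ratios scaling, without SS 299 and by DESeq2. REG4, a secreted lectin, had a log2 difference of -3.96 ± 0.79 (SE, limma adjusted p = 0.0273), with 169 CPM in NS 242, 71.9 in SS 274, 17 in SS 294 and 478 in SS 299 against 939 to 2907 CPM. WFDC2, a secreted protein with protease inhibitor domains, stood at 27.6 CPM in NS 242, 22.2 in SS 274, 1.07 in SS 294 and 63.4 in SS 299 against 168 to 347 CPM, with a log2 difference of -3.94 ± 0.88 (SE, limma adjusted p = 0.0334). SPINK4, REG4 and WFDC2 were not called without NS 165 or SS 274, nor was SPINK4 by edgeR or WFDC2 with the covariate. The trefoil peptides, which are packed with mucins, had levels of 33.6 CPM in NS 242, 49.5 in SS 274, 1.07 in SS 294 and 82.2 in SS 299 for TFF3, against 219.6 to 342 CPM. TFF2 stood at 20.5 CPM in NS 242, 29.9 in SS 274, 0.667 in SS 294 and 3.38 in SS 299 against 43.3 to 418 CPM, and here SS 299 was below NS 242 and SS 274. These 2 trefoil genes are further members of the list, as are AGR3, at 8.16 CPM in NS 242, 3.14 in SS 274, 0.934 in SS 294 and 28.3 in SS 299 against 53 to 93.7 CPM, and HEPACAM2, at 27.3 CPM in NS 242, 39.4 in SS 274, 3.2 in SS 294 and 177 in SS 299 against 188 to 358 CPM.

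Enzymes and transporters that build mucin glycans were lower as well. Of 22 tested, 19 were called lower and none higher (14 lower by edgeR and 20 by DESeq2), with a median log2 difference of -2.17. Without NS 165 or SS 274, limma called 10 and 1 of them lower. GFPT1, which makes the amino sugar that feeds glycan synthesis, stood at 116 CPM in NS 242, 159 in SS 274, 101 in SS 294 and 339 in SS 299 against 379 to 674 CPM, with a log2 difference of -1.70 ± 0.33 (SE, limma adjusted p = 0.0262). SLC35A3, a Golgi carrier of a nucleotide sugar, stood at 88.9 CPM in NS 242, 77.2 in SS 274, 51 in SS 294 and 316 in SS 299 against 316 to 719 CPM, with SS 299 level with the lowest of the epithelium-rich libraries, and had a log2 difference of -2.13 ± 0.48 (SE, limma adjusted p = 0.0335). It was not called by edgeR or without NS 165, SS 274 or SS 294, and GFPT1 was not called without SS 274. UAP1, which makes that nucleotide sugar, differed least in the list, with 167 CPM in NS 242, 315 in SS 274, 186 in SS 294 and 303 in SS 299 against 301 to 417 CPM and a log2 difference of -0.51 ± 0.22 (SE, limma adjusted p = 0.143), which was not called.

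Among genes listed for absorptive colonocytes, 19 of 27 tested were called lower and none higher by limma, 7 lower by edgeR and 26 by DESeq2. Groups did not overlap in 19 of the 27, and the median log2 difference was -2.95. Not all of these genes are particular to absorptive cells. Without NS 165 or SS 274, limma called 4 and 2 of them lower, and with status as a covariate 7. SLC12A2, the basolateral sodium, potassium and chloride cotransporter, stood at 109 CPM in NS 242, 53 in SS 274, 129 in SS 294 and 416 in SS 299 among the epithelium-poor libraries, and 486 CPM in NS 108, 711 in NS 152, 661 in NS 165, 955 in SS 287 and 683 in SS 310 among the epithelium-rich libraries. The lowest of the 9 was here SS 274, not SS 294, and the log2 difference was -2.36 ± 0.49 (SE, limma adjusted p = 0.0294). GPX2, a glutathione peroxidase of the gut epithelium, stood at 35.7 CPM in NS 242, 20.7 in SS 274, 2.27 in SS 294 and 158 in SS 299 against 236 to 521 CPM, with a log2 difference of -3.95 ± 0.92 (SE, limma adjusted p = 0.0347). LYPD8, a secreted surface protein that keeps flagellated bacteria from the epithelium, stood at 123 CPM in NS 242, 478 in SS 274, 6.81 in SS 294 and 391 in SS 299 against 956 to 1353 CPM. In LYPD8, SS 274 exceeded SS 299, and the log2 difference of -3.30 ± 1.04 (SE, limma adjusted p = 0.0646) was not called. It was -1.97 without SS 294, -2.16 by edgeR and -2.15 by DESeq2, and LYPD8 was called without SS 294 or SS 299 and by DESeq2. SLC16A1, a carrier of short-chain fatty acids and lactate, stood at 142 CPM in NS 242, 326 in SS 274, 241 in SS 294 and 320.2 in SS 299 against 399.7 to 716 CPM. It differed less than most of the list, by -1.14 ± 0.27 (SE, limma adjusted p = 0.0354) on the log2 scale. SLC12A2, GPX2 and SLC16A1 were not called without NS 165 or SS 274, nor GPX2 with the covariate, GPX2 and SLC16A1 by edgeR, or SLC16A1 without NS 242 or SS 294. SLC26A3, the chloride and bicarbonate exchanger of surface colonocytes and a further member of the list, stood at 72.6 CPM in NS 242, 324 in SS 274, 4.14 in SS 294 and 70.1 in SS 299 against 296 to 907 CPM. For this gene SS 274 lay inside the epithelium-rich range and SS 299 did not, the reverse of their order for EPCAM, and the gene was not called. The 27 genes summed to 1492 CPM in NS 242, 2673 in SS 274, 752 in SS 294 and 4376 in SS 299, against 8776 to 9824 CPM.

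Of 5 named enteroendocrine genes (of 15 listed), 4 were called lower, while edgeR called 2 and DESeq2 4. Without NS 165 or SS 294, and with status as a covariate, limma called 2 of them lower, and without SS 274 it called 0. PYY, a hormone of the distal gut, stood at 28.1 CPM in NS 242, 18.1 in SS 274, 3.2 in SS 294 and 64.1 in SS 299 among the epithelium-poor libraries, and 165 CPM in NS 108, 307 in NS 152, 411 in NS 165, 260.3 in SS 287 and 369 in SS 310 among the epithelium-rich libraries. All 4 epithelium-poor libraries were below the others, and the log2 difference was -3.94 ± 0.68 (SE, limma adjusted p = 0.024). CHGA, a granule protein, stood at 104 CPM in NS 242, 39.4 in SS 274, 11.3 in SS 294 and 562 in SS 299 against 705 to 1729.9 CPM, and its log2 difference was -3.76 ± 0.90 (SE, limma adjusted p = 0.0354). CHGA was not called by edgeR, with the covariate, or without NS 165, SS 274 or SS 294. Gcg, the precursor of glucagon-like peptides, stood at 19.2 CPM in NS 242, 17.6 in SS 274, 4.8 in SS 294 and 117 in SS 299 against 170.3 to 652 CPM, with a log2 difference of -3.85 ± 0.75 (SE, limma adjusted p = 0.0262). The fifth member, CCK, was at 177 CPM in NS 152 and at no more than 3.99 CPM in any other library, and it was not called.

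Other called genes at the low end had no place in a list or were listed elsewhere. SPINK1, a trypsin inhibitor, stood at 20.0 CPM in NS 242, 13.3 in SS 274, 2.94 in SS 294 and 128 in SS 299 against 197 to 442 CPM, with a log2 difference of -3.88 ± 0.83 (SE, limma adjusted p = 0.0304). C9, a complement component, stood at 17.4 CPM in NS 242, 10.5 in SS 274, 4.8 in SS 294 and 158 in SS 299 against 199 to 478 CPM, with a log2 difference of -3.98 ± 0.83 (SE, limma adjusted p = 0.0294). Neither was called by edgeR or without SS 274, nor was SPINK1 without NS 165. S100A2 was listed as a squamous gene and stood at 12.1 CPM in NS 242, 9.24 in SS 274, 1.74 in SS 294 and 21.3 in SS 299 against 68.7 to 182 CPM, with a log2 difference of -3.84 ± 0.59 (SE, limma adjusted p = 0.024). The keratins that define squamous epithelium had no name here and were not analysed. The 2 further squamous genes tested did not go the same way, since EVPL was highest in SS 294 and SS 299, at 110.4 and 51 CPM against 2.2 to 13.2 CPM in the epithelium-rich libraries, while COL17A1 stood at 17.6 CPM in NS 242, 14.4 in SS 274, 0.801 in SS 294 and 4.08 in SS 299 against 11.7 to 82.9 CPM. The log2 difference of COL17A1 was -2.46 ± 0.82 (SE, limma adjusted p = 0.0738), which limma called only without NS 242 and DESeq2 called. Of these 3 squamous genes limma, edgeR and DESeq2 called 1, 1 and 2 lower, and limma called 2 without NS 242.

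Genes of the crypt base and of dividing cells were less uniform. Of 6 tested, which do not include LGR5 because it had no name here, 1 was called lower, the receptor LGR4. It stood at 47 CPM in NS 242, 56 in SS 274, 78.6 in SS 294 and 193 in SS 299 against 183 to 276 CPM, SS 299 lying inside that range. Its log2 difference was -1.45 ± 0.37 (SE, limma adjusted p = 0.0399). DESeq2 also called 1 and edgeR none, and limma called 0 of the list without NS 165, SS 274 or SS 294, 3 without NS 242 and 2 without SS 299. LGR4 was not among the 3 called without NS 242 and was not called without the filter. The median log2 difference of the list was -0.73, and it was -1.22 without NS 242, -0.45 without SS 294 and -0.43 with status as a covariate. MYB, a transcription factor of crypt progenitors and of lymphocyte precursors, stood at 80.5 CPM in NS 242, 17 in SS 274, 10.0 in SS 294 and 186 in SS 299 against 168 to 242 CPM. SS 299 lay inside the epithelium-rich range, and the log2 difference of -2.28 ± 0.72 (SE, limma adjusted p = 0.0658) was not called. It was -1.52 by edgeR, and limma called it without SS 299. SMC4, a subunit of condensin, was highest of all in NS 242 at 263 CPM and lowest in SS 294 at 70.1 CPM. The list summed to 753 CPM in NS 242, 254 in SS 274, 230.4 in SS 294 and 682 in SS 299, against 718 to 994 CPM, so that NS 242 and SS 299 were close to the epithelium-rich libraries and SS 274 and SS 294 were not. Replication-dependent histone genes, whose RNA lacks a poly(A) tail and is kept by rRNA depletion, had none of 18 tested members called by limma, edgeR or DESeq2 (3 at an unadjusted limma p below 0.05) and a median log2 difference of -1.46. Without NS 242, limma called 15 of the 18 lower and the median was -2.21, and without SS 294 the median was -0.84. HIST1H1E was highest in NS 242 at 263 CPM and stood at 48.2 and 41.4 CPM in SS 274 and SS 294. HIST1H4B, likewise highest in NS 242 at 252 CPM, was at 93.1 CPM in SS 274. HIST1H2BO, the only one of the 18 with a difference above 0, stood at 248 CPM in NS 242, 284 in SS 274, 251 in SS 294 and 152 in SS 299 against 152 to 204 CPM. Since such genes are near copies of each other, reads may be split between them and single values are uncertain.

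**Figure D2:**
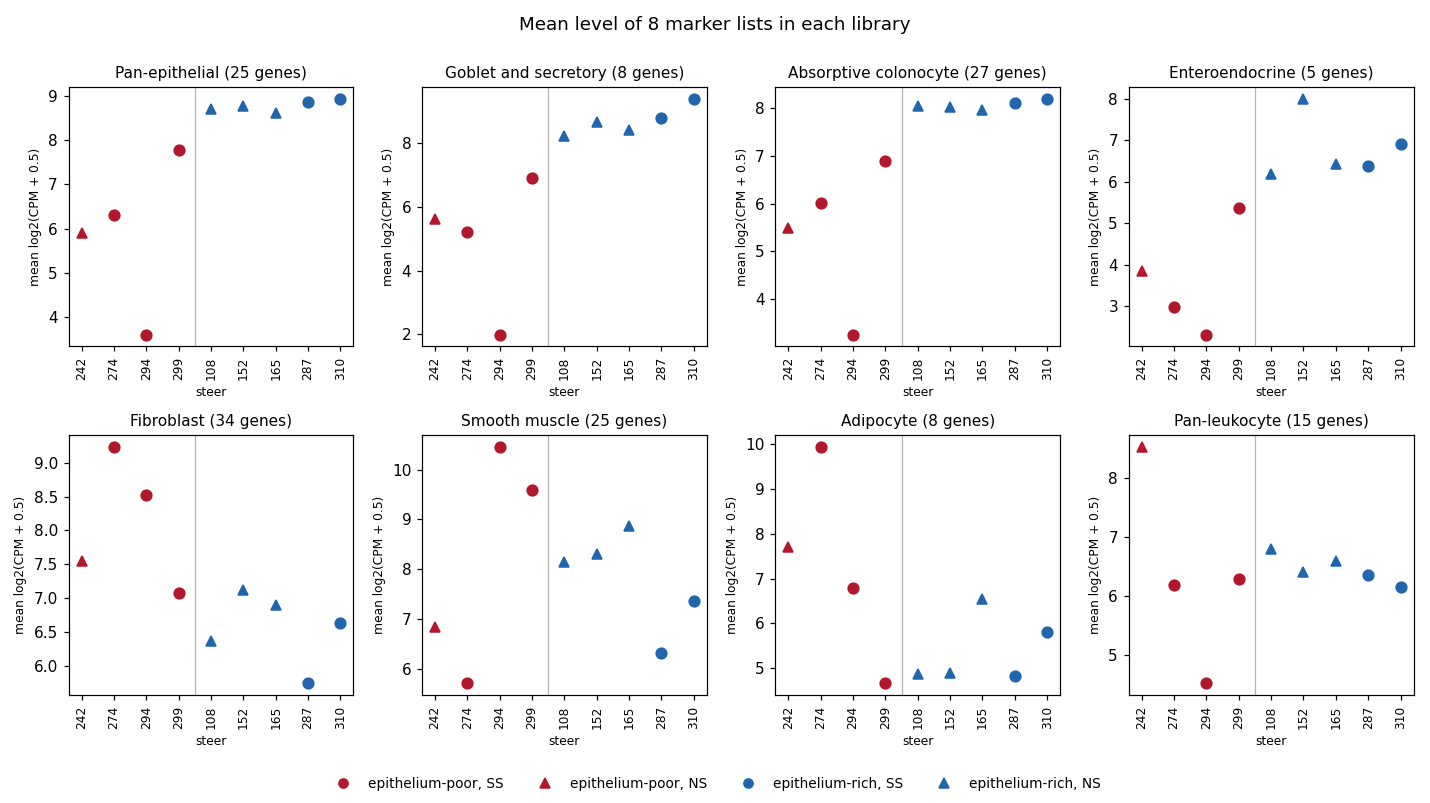
Mean log2(CPM + 0.5) over the tested members of 8 marker lists in each of the 9 libraries, named by steer, with the 4 epithelium-poor libraries left of the line and the 5 epithelium-rich libraries right of it, circles for SS and triangles for NS. The 4 epithelial lists are lower in each epithelium-poor library, while the fibroblast and adipocyte lists are highest in SS 274, the smooth muscle list in SS 294 and the leukocyte list in NS 242.

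Among the lists, that of fibroblast and matrix genes had the most members called higher. The share was larger in the shorter list of vessel genes, with 3 of 8 called higher. Of all 2049 named genes tested, 30 were called higher (1.46%). Of 34 tested, 8 were called higher and none lower by limma, 14 higher by edgeR and 26 by DESeq2, 7 had non-overlapping groups, and the median log2 difference was 1.64. Without SS 299 limma called 23 of them higher, without SS 294 it called 1, and without NS 165 or SS 274, or with status as a covariate, it called 0. COL1A2, a chain of type I collagen, stood at 3009 CPM in NS 242, 8354 in SS 274, 5436 in SS 294 and 1181 in SS 299 among the epithelium-poor libraries, and 1005 CPM in NS 108, 1821 in NS 152, 1099.7 in NS 165, 505 in SS 287 and 1059 in SS 310 among the epithelium-rich libraries. SS 274, SS 294 and NS 242 were above all epithelium-rich libraries and SS 299 lay inside their range, and the mean was 4495 ± 3108 CPM (SD, n = 4) against 1098 ± 470.2 CPM (SD, n = 5). With a log2 difference of 1.81 ± 0.56 (SE, limma adjusted p = 0.0611) and an exact permutation p = 0.0317, COL1A2 was not called. Its partner chain COL1A1 had the same order, at 2145 CPM in NS 242, 6109.7 in SS 274, 4185 in SS 294 and 923 in SS 299 against 364 to 1137 CPM, and a log2 difference of 1.81 ± 0.54 (SE, limma adjusted p = 0.0565). FBN1, the fibrillin of microfibrils, reached 14551 CPM in SS 274 and stood at 1973, 2858 and 1297 CPM in NS 242, SS 294 and SS 299, against 545 to 1017 CPM. The groups did not overlap for FBN1, and its log2 difference was 1.93 ± 0.61 (SE, limma adjusted p = 0.0642), with 1.20 without SS 274. COL1A2, COL1A1 and FBN1 were called without SS 299, by edgeR and by DESeq2.

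Among the genes of this list that were called, CCDC80, a secreted matrix protein, stood at 566 CPM in NS 242, 1200.4 in SS 274, 1669 in SS 294 and 387 in SS 299 among the epithelium-poor libraries, and 156 CPM in NS 108, 321 in NS 152, 305 in NS 165, 70.1 in SS 287 and 198 in SS 310 among the epithelium-rich libraries. The order was SS 294, SS 274, NS 242 and SS 299, the last above NS 152, and the log2 difference was 2.14 ± 0.53 (SE, limma adjusted p = 0.0373). COL6A3, a chain of type VI collagen, had its highest value in SS 294, with 596 CPM in NS 242, 1082 in SS 274, 3283 in SS 294 and 751 in SS 299 against 165 to 391 CPM, and a log2 difference of 1.96 ± 0.48 (SE, limma adjusted p = 0.0367). CILP, a matrix protein first described in cartilage, stood at 44.5 CPM in NS 242, 227 in SS 274, 112 in SS 294 and 24.5 in SS 299 against 3.64 to 24.3 CPM, with a log2 difference of 2.47 ± 0.70 (SE, limma adjusted p = 0.0489), and SS 299 and SS 310 differed by less than 1 CPM. MXRA8, a membrane protein of stromal cells, stood at 23.7 CPM in NS 242, 111 in SS 274, 71.3 in SS 294 and 33.9 in SS 299 against 10.4 to 20.9 CPM and had a log2 difference of 1.64 ± 0.43 (SE, limma adjusted p = 0.0419). Outside the list, the collagen receptor DDR2 stood at 133 CPM in NS 242, 695 in SS 274, 253 in SS 294 and 144 in SS 299 against 29.8 to 107 CPM, with a log2 difference of 1.85 ± 0.51 (SE, limma adjusted p = 0.048). TGFBR3, a coreceptor for TGF-β, stood at 188 CPM in NS 242, 683 in SS 274, 380.4 in SS 294 and 114 in SS 299 against 31.3 to 93.3 CPM, and its log2 difference was 2.14 ± 0.52 (SE, limma adjusted p = 0.036). None of these 6 genes was called with status as a covariate or without NS 165 or SS 274, and without SS 294 only COL6A3 of the 6 was called. Their log2 differences were 1.49 to 2.48 with the covariate, 1.74 to 2.65 without NS 165 and 1.26 to 1.98 without SS 274. CILP and DDR2 were also not called with a pseudocount of 0.1, TMM or median-of-ratios scaling, thinning or no intensity trend, and neither they nor MXRA8 were called without the filter.

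The fibroblast list did not move as one. PI16, a marker of adventitial fibroblasts, the matrix proteoglycan OGN and the secreted Wnt modulator SFRP2, all further members of the list, were highest in SS 274. PI16 stood there at 1200.4 CPM and at 146 CPM in SS 294, OGN at 3193 and 438 CPM, and SFRP2 at 491 and 199.7 CPM. POSTN, a matrix protein and also a further member, stood at 89.5 CPM in NS 242, 26.6 in SS 274, 864 in SS 294 and 905 in SS 299 against 237 to 574 CPM, so it was lowest in the library where those genes were highest. SS 274 held the highest of the 9 values in 25 of the 34 genes, SS 294 in 6, NS 242 in 2 and SS 299 in 1. SS 287 held the lowest value in 26. The 34 genes summed to 15243 CPM in NS 242, 58308 in SS 274, 30809.8 in SS 294 and 10874 in SS 299, against 4955 to 11001 CPM, FBN1 having the highest CPM without correction for length.

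Smooth muscle genes did not follow the division. Of 25 tested, limma called none in either direction (2 at an unadjusted p below 0.05), edgeR called 1 higher and DESeq2 2, and the median log2 difference was 0.31. Its sign rested on single libraries, with -0.06, -0.49 and -0.21 without SS 287, SS 294 and SS 299, 1.23 without SS 274 and 0.20 to 0.69 without each other library, and limma called 1 gene higher without NS 242. MYH11, the myosin heavy chain of smooth muscle, stood at 1167 CPM in NS 242, 89.1 in SS 274, 28258 in SS 294 and 12755 in SS 299 among the epithelium-poor libraries, and 4597 CPM in NS 108, 4332 in NS 152, 7021 in NS 165, 853 in SS 287 and 2084 in SS 310 among the epithelium-rich libraries. SS 294 and SS 299 were the 2 highest of all and SS 274 was the lowest, with NS 242 below all epithelium-rich libraries but SS 287. DES, the muscle intermediate filament, stood at 381 CPM in NS 242, 27.9 in SS 274, 6775 in SS 294 and 4234 in SS 299 against 203 to 2196 CPM. FLNA, an actin crosslinker that many cell types express, stood at 1622 CPM in NS 242, 899 in SS 274, 17647 in SS 294 and 9739 in SS 299 against 959 to 4805 CPM. SS 294 held the highest value in 25 of the 25 genes, and SS 274 the lowest in 16. The list summed to 5909 CPM in NS 242, 2634 in SS 274, 89024 in SS 294 and 46955 in SS 299 in the epithelium-poor libraries, and to 17399 CPM in NS 108, 17708 in NS 152, 26743 in NS 165, 3949 in SS 287 and 8833 in SS 310 in the others. The 4 libraries low in epithelial RNA thus held both extremes of muscle RNA, and the part of muscle content in the calls above was not tested.

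Of 8 adipocyte genes tested, 7 were highest in SS 274. Of the 8, limma called none (3 at an unadjusted p below 0.05), edgeR called none, DESeq2 called 5 higher and 1 lower, and the median log2 difference was 1.98. The median was 1.04 without SS 274, and limma called 4 genes higher and 1 lower without SS 299 and 1 lower without NS 242 or with TMM or median-of-ratios scaling. LPL, the lipase that takes up fat from lipoproteins, stood at 557 CPM in NS 242, 2124 in SS 274, 312 in SS 294 and 16.3 in SS 299 among the epithelium-poor libraries, and 42.4 CPM in NS 108, 43.6 in NS 152, 171 in NS 165, 25.5 in SS 287 and 38.9 in SS 310 among the epithelium-rich libraries. The order was SS 274, NS 242, SS 294 and then NS 165, an epithelium-rich library, with SS 299 the lowest of the 9. SCD, a fatty acid desaturase, stood at 524 CPM in NS 242, 5159 in SS 274, 393 in SS 294 and 135 in SS 299 against 151 to 297 CPM. FASN, which makes fatty acids, stood at 798 CPM in NS 242, 5216 in SS 274, 509 in SS 294 and 197 in SS 299 against 145 to 398 CPM. FABP4, the fatty acid carrier of adipocytes and a further member of the list, stood at 295 CPM in NS 242, 1219 in SS 274, 91.7 in SS 294 and 6.34 in SS 299 and at 136 CPM in NS 165, against 0.423 to 20.4 CPM in the remaining epithelium-rich libraries. The list summed to 2612 CPM in NS 242, 16411 in SS 274, 1581 in SS 294 and 471 in SS 299, against 589.6 to 987 CPM. CFD, a complement protease of adipocytes and a further member, went the other way, at 69.2 CPM in NS 242, 56 in SS 274, 13.3 in SS 294 and 74.2 in SS 299 against 101 to 164 CPM, with no overlap. The genes of the defining adipocyte markers ADIPOQ, PLIN1 and LEP had no name here and were not analysed.

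Vessel genes did not all go one way. Of 8 tested, 3 were called higher and none lower by limma, 4 higher by edgeR and 5 by DESeq2, with a median log2 difference of 1.20. Without SS 299 limma called 5 of them higher and 1 lower, and without NS 165, SS 274 or SS 294, or with status as a covariate, it called 0. COL4A1, a collagen of basement membranes, stood at 362 CPM in NS 242, 937 in SS 274, 949 in SS 294 and 493 in SS 299 against 138 to 349.5 CPM, the groups did not overlap, and the log2 difference was 1.47 ± 0.37 (SE, limma adjusted p = 0.0392). PECAM1, the endothelial adhesion molecule and a further member, stood at 205 CPM in NS 242, 273 in SS 274, 348 in SS 294 and 137 in SS 299 against 49.5 to 126 CPM and was called. RGS5, a regulator of G protein signalling typical of pericytes, stood at 144 CPM in NS 242, 66.5 in SS 274, 376 in SS 294 and 851 in SS 299 against 576 to 946 CPM. It was lower in NS 242, SS 274 and SS 294 and inside the range in SS 299, with a log2 difference of -1.69 ± 0.61 (SE, limma adjusted p = 0.0933), which was not called. It was -1.08 without SS 274, and RGS5 was called without SS 299. AQP1, a water channel, stood at 108 CPM in NS 242, 93.5 in SS 274, 369.6 in SS 294 and 354 in SS 299 against 162 to 324 CPM, the epithelium-poor libraries lying on both sides of that range. LAMA4, a laminin chain of vessel and muscle basement membranes, was called outside the list, at 390.2 CPM in NS 242, 996 in SS 274, 1250.2 in SS 294 and 555 in SS 299 against 134 to 368 CPM, with a log2 difference of 1.48 ± 0.39 (SE, limma adjusted p = 0.0434) and 2.26 within the SS libraries. Neither COL4A1 nor LAMA4 was called with the covariate, without NS 165, SS 274 or SS 294, or without the filter.

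The remaining named genes with the largest called differences on the higher side had varied roles. F13A1, a subunit of coagulation factor XIII made by tissue macrophages, stood at 222 CPM in NS 242, 1309 in SS 274, 252 in SS 294 and 104 in SS 299 among the epithelium-poor libraries, and 33.1 CPM in NS 108, 81.5 in NS 152, 43.3 in NS 165, 25 in SS 287 and 24.7 in SS 310 among the epithelium-rich libraries. SS 274 was highest and SS 299 lowest of the epithelium-poor libraries, all 4 were above the others, and the log2 difference was 2.97 ± 0.65 (SE, limma adjusted p = 0.0315), the highest among the named genes called without overlap. RNASE1, a secreted ribonuclease of endothelial cells, stood at 30.5 CPM in NS 242, 144 in SS 274, 53.5 in SS 294 and 23.7 in SS 299 against 6.86 to 17.5 CPM, with a log2 difference of 2.18 ± 0.49 (SE, limma adjusted p = 0.0335). SESN3, a stress-regulated inhibitor of the mTORC1 kinase, stood at 258 CPM in NS 242, 235 in SS 274, 237 in SS 294 and 100.1 in SS 299 against 39.9 to 86.2 CPM, with a log2 difference of 1.61 ± 0.33 (SE, limma adjusted p = 0.0294). All 3 lost the call without SS 274, F13A1 and RNASE1 also without NS 165, and RNASE1 also without SS 294 and with status as a covariate.

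**Figure D3:**
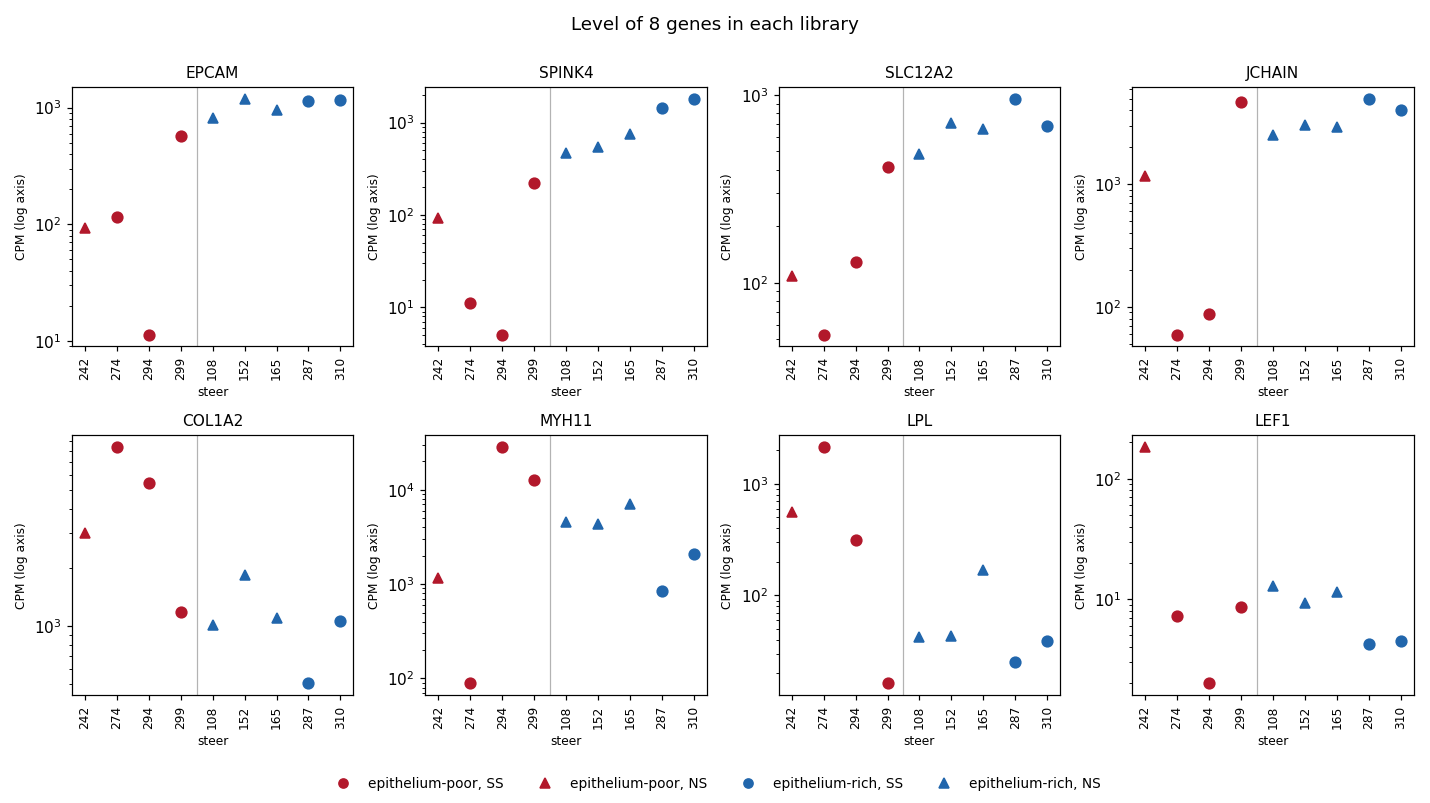
Level of EPCAM, SPINK4, SLC12A2, JCHAIN, COL1A2, MYH11, LPL and LEF1 (CPM, log axis) in each of the 9 libraries, named by steer, with the 4 epithelium-poor libraries left of the line and circles for SS and triangles for NS. EPCAM, SPINK4 and SLC12A2 are below the epithelium-rich libraries in all 4, whereas MYH11 is highest in SS 294, LPL in SS 274 and LEF1 in NS 242.

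Leukocyte genes set NS 242 apart from the other epithelium-poor libraries. None of the 15 pan-leukocyte, 10 T cell, 11 B cell and 5 lymphoid stroma genes tested was called by limma, edgeR or DESeq2 or was at an unadjusted limma p below 0.05 (0 genes), and their median log2 differences were -0.10, -0.36, -0.64 and 0.03. The signs of these medians rested on single libraries, with -0.96, -1.33, -1.75 and -1.29 without NS 242 and 0.54, 0.49, 0.33 and 0.67 without SS 294, and the last was -0.09 and -0.13 without SS 287 and SS 310. With status as a covariate the medians were 0.40, 0.48, 0.47 and 0.85, and with TMM scaling the last was -0.02. Without NS 242, limma called 1 T cell gene and 1 B cell gene lower. PTPRC, the phosphatase CD45 of all leukocytes, stood at 1344 CPM in NS 242, 238 in SS 274, 78.1 in SS 294 and 305 in SS 299 among the epithelium-poor libraries, and 309 CPM in NS 108, 249 in NS 152, 259 in NS 165, 279 in SS 287 and 208 in SS 310 among the epithelium-rich libraries. NS 242 was the highest and SS 294 the lowest of the 9, and SS 274 and SS 299 lay inside the epithelium-rich range. LCP1, an actin bundler of leukocytes, stood at 869 CPM in NS 242, 146 in SS 274, 38.6 in SS 294 and 184 in SS 299 against 155 to 300.0 CPM, and the lysosomal protein LAPTM5 at 1037 CPM in NS 242, 266 in SS 274, 88.5 in SS 294 and 229 in SS 299 against 239 to 322 CPM. NS 242 held the highest value in 15 of 15 pan-leukocyte genes, 9 of 10 T cell genes, 10 of 11 B cell genes and 5 of 5 lymphoid stroma genes, and SS 294 the lowest in 13, 10, 11 and 4. Most T cell, B cell and lymphoid stroma members are among the genes the study reported lower in SS, from these same libraries. A high value in an NS library was thus partly set in advance for them, and these counts are a description only.

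Most T cell, B cell and lymphoid stroma genes were highest in NS 242, with 2 exceptions. CCL5, a chemokine of T cells, was highest in SS 287 at 38.8 CPM against 30.7 CPM in NS 242, and RGS13, a regulator of G protein signalling in B cells, in NS 108 at 41 CPM against 39.6 CPM, both being further members of their lists. LEF1, a transcription factor of naive T cells, stood at 182 CPM in NS 242, 7.21 in SS 274, 2 in SS 294 and 8.59 in SS 299 among the epithelium-poor libraries, and 12.9 CPM in NS 108, 9.2 in NS 152, 11.4 in NS 165, 4.23 in SS 287 and 4.51 in SS 310 among the epithelium-rich libraries, and TCF7, its relative, at 142 CPM in NS 242, 10.5 in SS 274, 3.07 in SS 294 and 18.3 in SS 299 against 8.51 to 22.6 CPM. CCR7, the receptor that guides lymphocytes into lymphoid tissue, stood at 160.4 CPM in NS 242, 2.59 in SS 274, 0.4 in SS 294 and 3.66 in SS 299 against 4.77 to 14.2 CPM. Its ligands CCL21 and CCL19 stood at 366 and 181 CPM in NS 242, against 9.03 to 30.8 and 6.16 to 22.6 CPM in the epithelium-rich libraries. CXCL13, which draws B cells into follicles, stood at 293 CPM in NS 242, 4.25 in SS 274, 0.801 in SS 294 and 5.63 in SS 299 against 2.34 to 75.3 CPM, so SS 274, SS 294, SS 299 and SS 310 were all low. CD3G, a chain of the T cell receptor complex, stood at 107 CPM in NS 242, 14.4 in SS 274, 2.67 in SS 294 and 17.3 in SS 299 against 19.5 to 28.9 CPM. The B cell surface gene MS4A1 stood at 206 CPM in NS 242, 14.6 in SS 274, 0.801 in SS 294 and 13.8 in SS 299 against 4.43 to 68 CPM, and CD22, an inhibitory receptor of B cells, at 177 CPM in NS 242, 17.7 in SS 274, 2.67 in SS 294 and 9.01 in SS 299 against 5.9 to 47.5 CPM. POU2AF1, a coactivator of B cells, stood at 145 CPM in NS 242, 7.94 in SS 274, 0.534 in SS 294 and 33.9 in SS 299 against 11.7 to 71.8 CPM, the last of these in NS 108. The T cell list summed to 1064 CPM in NS 242, 68.4 in SS 274, 15.6 in SS 294 and 107 in SS 299, against 112 to 163 CPM, the B cell list to 958 CPM in NS 242, 79.6 in SS 274, 12.8 in SS 294 and 93.1 in SS 299, against 52.5 to 363 CPM, and the lymphoid stroma list to 1119 CPM in NS 242, 36.8 in SS 274, 26.3 in SS 294 and 61.5 in SS 299, against 35.4 to 173 CPM.

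Of 5 plasma cell genes tested, limma called 1 lower, against 10.2% of all named genes. JCHAIN, which joins IgA into dimers, stood at 1169 CPM in NS 242, 59.3 in SS 274, 86.9 in SS 294 and 4705 in SS 299 among the epithelium-poor libraries, and 2506 CPM in NS 108, 3061 in NS 152, 2944 in NS 165, 4992 in SS 287 and 4021 in SS 310 among the epithelium-rich libraries. NS 242, SS 274 and SS 294 were below the epithelium-rich libraries, whereas SS 299 stood near the top of their range, and the log2 difference of -3.05 ± 1.14 (SE, limma adjusted p = 0.101) was not called. It was -1.33 by edgeR and -1.34 by DESeq2, and limma called it without SS 299. XBP1, a transcription factor of secretory cells that goblet cells also express, was the 1 of 5 genes called by limma and by edgeR (DESeq2 called 2, and limma called 2 without NS 242 or SS 299 and 0 without SS 274), with 192 CPM in NS 242, 180.1 in SS 274, 119 in SS 294 and 269 in SS 299 against 362 to 486 CPM and a log2 difference of -1.22 ± 0.22 (SE, limma adjusted p = 0.0261). TXNDC5, an ER disulfide isomerase, stood at 52.1 CPM in NS 242, 26.1 in SS 274, 18 in SS 294 and 63.8 in SS 299 against 38.2 to 87.7 CPM.

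Of 41 tested genes of the ER secretory pathway, which every cell uses and secretory cells use most, 11 were called lower and none higher (9 lower by edgeR and by DESeq2), 29 had non-overlapping groups on the lower side, and the median log2 difference was -0.88. Without NS 165, NS 242, SS 274, SS 294 or SS 299, limma called 7, 18, 1, 4 and 18 of them lower, and with status as a covariate 4. HSPA5, the ER chaperone BiP, stood at 516 CPM in NS 242, 375 in SS 274, 261 in SS 294 and 578 in SS 299 among the epithelium-poor libraries, and 1061 CPM in NS 108, 1021 in NS 152, 637 in NS 165, 995 in SS 287 and 1166 in SS 310 among the epithelium-rich libraries. All 4 epithelium-poor libraries were below the others, SS 299 and NS 165 being closest, and the log2 difference was -1.21 ± 0.27 (SE, limma adjusted p = 0.0333), which was not called with the covariate or without SS 274 or SS 294. HSP90B1, another ER chaperone, stood at 847 CPM in NS 242, 599.9 in SS 274, 562 in SS 294 and 1232 in SS 299 against 981 to 1955 CPM, with a log2 difference of -0.95 ± 0.29 (SE, limma adjusted p = 0.0587) and SS 299 inside that range, and it was called without SS 299. CANX, a lectin chaperone, differed by -0.64 ± 0.18 (SE, limma adjusted p = 0.0468) on the log2 scale, less than the threshold of 1, with 541 CPM in NS 242, 599.5 in SS 274, 547 in SS 294 and 820.4 in SS 299 against 848 to 1059 CPM.

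Macrophage, neutrophil and interferon response genes were not called by limma or edgeR in either direction, in 8, 4 and 15 genes tested, of which 1, 0 and 2 were at an unadjusted limma p below 0.05 and 1, 0 and 1 were called higher by DESeq2, with median log2 differences of 0.62, -0.18 and -0.51. The neutrophil median was 0.88 with status as a covariate, 1.14 without NS 152, 0.50 without SS 294, -1.09 without NS 242 and -0.60 to -0.05 without each other library, the interferon median was -0.32 with the covariate, -0.79 without NS 242, -0.78 without SS 299 and 0.03 without SS 294, and the macrophage median was 0.30 without NS 242, 0.26 without SS 274 and 0.97 without SS 294. Without NS 242 or SS 299, limma called 1 macrophage gene higher and 1 interferon response gene lower. C1QA, a chain of complement C1q made by macrophages, stood at 303 CPM in NS 242, 399 in SS 274, 84.4 in SS 294 and 80.8 in SS 299 among the epithelium-poor libraries, and 90.0 CPM in NS 108, 122 in NS 152, 103 in NS 165, 126 in SS 287 and 103 in SS 310 among the epithelium-rich libraries. Only NS 242 and SS 274 were above the epithelium-rich libraries, and SS 294 and SS 299 were below them. FGL2, a secreted fibrinogen-like protein, stood at 232 CPM in NS 242, 470.2 in SS 274, 557 in SS 294 and 267 in SS 299 against 90.6 to 277 CPM, with a log2 difference of 1.23 ± 0.37 (SE, limma adjusted p = 0.058) and 1.85 within the SS libraries, which limma called only without NS 242 or SS 299 and DESeq2 called. CTSS, a lysosomal protease of antigen-presenting cells, stood at 584 CPM in NS 242, 529.7 in SS 274, 148 in SS 294 and 428 in SS 299 against 416 to 686 CPM. The neutrophil genes S100A8, S100A9 and S100A12 were highest in NS 152, an epithelium-rich library, at 117, 112 and 677 CPM, and lowest in SS 294, at 0.134, 0.134 and 1.87 CPM, the first 2 of these resting on 1 read each. FCN2, the remaining member of the 4 in this list, was instead highest in NS 242, at 57.5 CPM against at most 2.59 CPM elsewhere. IDO1, which breaks down tryptophan, stood at 232 CPM in NS 242, 285 in SS 274, 92.2 in SS 294 and 643 in SS 299 against 93.8 to 548 CPM. SS 294 held the lowest value in 14 of the 15 interferon response genes and NS 242 the highest in 8.

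Of 59 tested nuclear genes of oxidative phosphorylation, limma called 7 lower and none higher (8 lower by edgeR and 9 by DESeq2), a share near that of all named genes called lower (10.2%), and 52 did not pass. Of the 59, 40 had non-overlapping groups on the lower side, a larger share than the 22.1% of all named genes. At an unadjusted limma p below 0.05 there were 47 of the 59, and the median log2 difference of the list was -0.69. Without NS 242, SS 274, SS 294 or SS 299, limma called 12, 1, 4 and 13 of them lower. The 3 with the highest mean CPM were not among those called. ATP5B, a subunit of ATP synthase, stood at 449 CPM in NS 242, 338 in SS 274, 342 in SS 294 and 495 in SS 299 among the epithelium-poor libraries, and 817 CPM in NS 108, 809 in NS 152, 646 in NS 165, 759.6 in SS 287 and 829 in SS 310 among the epithelium-rich libraries. The groups did not overlap, and the log2 difference of -0.94 ± 0.17 (SE, limma adjusted p = 0.0261) was under the threshold of 1, and ATP5B was called without NS 165 or SS 299. ATP5A1, its partner subunit, stood at 453 CPM in NS 242, 312 in SS 274, 309.5 in SS 294 and 442 in SS 299 against 581 to 764 CPM, and NDUFS1, a subunit of complex I, at 151 CPM in NS 242, 159 in SS 274, 164 in SS 294 and 211 in SS 299 against 239 to 278 CPM, with log2 differences of -0.88 ± 0.18 (SE, limma adjusted p = 0.0276) and -0.63 ± 0.14 (SE, limma adjusted p = 0.0316). Of 12 transcripts encoded in the mitochondrial genome, none was called by limma, edgeR or DESeq2, with 0 at an unadjusted limma p below 0.05, and their median log2 difference was 0.24, with 0.60 without NS 242, 0.03 without SS 274, 0.37 without SS 287, 0.08 without SS 299, 0.11 without SS 310 and 0.10 with status as a covariate. MT-CO1, a subunit of cytochrome c oxidase, stood at 10852 CPM in NS 242, 31912 in SS 274, 11605 in SS 294 and 22614 in SS 299 against 16063 to 26925 CPM, with SS 274 the highest of the 9 libraries and NS 242 the lowest. MT-CO2 and MT-CO3 were likewise lowest in NS 242, at 1595 and 1377 CPM. In SS 274 they stood at 6159 and 5383 CPM, against 3809.9 to 6547 and 1973 to 2882 CPM in the epithelium-rich libraries.

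Cytosolic ribosomal protein genes had none of 71 tested members called by limma, edgeR or DESeq2 (1 at an unadjusted limma p below 0.05) and a median log2 difference of -0.21. The median was -0.49 without NS 242, where limma called 2 lower, -0.004 without SS 274 and -0.02 with status as a covariate. NS 242 held the highest value in 68 of the 71 and SS 274 the lowest in 58. RPL23, of the large subunit, stood at 1405 CPM in NS 242, 703 in SS 274, 867 in SS 294 and 851 in SS 299 against 840.4 to 1150.4 CPM. The list summed to 41009 CPM in NS 242, 15104 in SS 274, 20185 in SS 294 and 21681 in SS 299, against 24725 to 28923 CPM. Such genes have many near-identical copies in the genome, so their reads may be split. Of 11 immediate-early genes tested, 1 was called lower by each of limma, edgeR and DESeq2, DESeq2 also called 2 higher, and the median log2 difference was 0.26. The median was -0.01 without SS 287, 0.06 without NS 108, 0.09 without NS 242, 0.61 without NS 165, 0.44 without SS 299, 0.46 without SS 310 and 0.41 with status as a covariate, and limma called 3 higher and 2 lower without SS 299 and 2 lower without NS 242 or with TMM or median-of-ratios scaling. FOS and DUSP1, which respond within minutes to stress and handling, were highest in SS 274, at 721 and 898 CPM. FOS was the lowest of the 9 libraries in SS 299. In NS 242, SS 294 and SS 299, FOS stood at 256, 76.7 and 17.7 CPM and DUSP1 at 232, 169 and 92.7 CPM. In the epithelium-rich libraries they stood at 20.9 to 191 and 49.5 to 146 CPM, and the log2 difference of DUSP1 was 1.59 ± 0.59 (SE, limma adjusted p = 0.0994), with 0.95 without SS 274, and it was called only without SS 299 and by DESeq2. KLF4, which is also a transcription factor of differentiated epithelium, stood at 78.8 CPM in NS 242, 419 in SS 274, 71.7 in SS 294 and 139.7 in SS 299 against 195 to 273 CPM. The called member was ID1, a further member of the list and an inhibitor of DNA-binding transcription factors, at 15.3 CPM in NS 242, 11.8 in SS 274, 15.9 in SS 294 and 31.7 in SS 299 against 49.6 to 82.1 CPM.

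The 3 reference genes were not called by limma, edgeR or DESeq2, with 0 at an unadjusted limma p below 0.05. ACTB, cytoplasmic actin, stood at 4406 CPM in NS 242, 2459.9 in SS 274, 3829 in SS 294 and 3486 in SS 299 against 2667 to 3509 CPM, with a log2 difference of 0.23 ± 0.25 (SE, limma adjusted p = 0.576), which was 0.11 without NS 242 and 0.39 without SS 274. GAPDH, a glycolytic enzyme, stood at 362 CPM in NS 242, 311 in SS 274, 354 in SS 294 and 290.5 in SS 299 against 289 to 419 CPM, with a log2 difference of -0.20 ± 0.16 (SE, limma adjusted p = 0.412), which was -0.11 with status as a covariate and -0.07 within the SS libraries. RPLP0, a ribosomal protein, varied more, at 1663 CPM in NS 242, 490.0 in SS 274, 608 in SS 294 and 768 in SS 299 against 1076 to 1157 CPM, with a log2 difference of -0.51 ± 0.32 (SE, limma adjusted p = 0.296). The last was -0.87 without NS 242, -0.28 without SS 274, -0.32 with the covariate and -0.89 within the SS libraries. For RPLP0 the epithelium-poor libraries lay on both sides of the epithelium-rich range, with NS 242 above it and the other 3 below.

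Each epithelium-poor library also held named genes above all 8 others, by wide gaps in NS 242 and SS 274 and by small ones in SS 299. In NS 242 these were FCN2, a complement-activating lectin, with 57.5 CPM against at most 2.59 CPM elsewhere, and the LEF1, CCL21 and CCR7 given above. In SS 274 they were genes of fat synthesis and 1 regulator. ELOVL6, which lengthens fatty acids, reached 2122 CPM there against at most 186 CPM elsewhere, AGPAT2, which builds phospholipid and fat precursors, 436 against 43.8 CPM, and SCD 5159 against 524 CPM. CDKN1C, an inhibitor of the cell cycle, reached 180.3 CPM against 16.8 CPM, and its log2 difference was 2.20 ± 0.86 (SE, limma adjusted p = 0.114). That difference was 1.19 without SS 274, 3.61 by edgeR and 3.64 by DESeq2, and CDKN1C was called only without SS 299 and by DESeq2. In SS 294 they were COL6A3, the small GTPase GEM with 472 CPM, the cytoskeletal regulator DPYSL3 with 454 CPM and the small heat shock protein HSPB6 with 44 CPM. The highest value elsewhere was that of SS 299 for the last 3, at 167, 169.7 and 16.3 CPM. The log2 differences of DPYSL3 and HSPB6 were 1.26 ± 0.53 (SE, limma adjusted p = 0.138) and 1.89 ± 0.57 (SE, limma adjusted p = 0.0587), and limma called neither. That of DPYSL3 was 0.79 without SS 294 and 2.23 within the SS libraries, DESeq2 called both, and HSPB6 was called by edgeR and by limma without NS 242. In SS 299 the genes were WARS, a tryptophan-tRNA ligase induced by interferon, with 697 CPM against 446 CPM, the complement component C3 with 961 against 709 CPM, the splicing factor RBM25 with 182 against 140.5 CPM, and ASIP, an antagonist of melanocortin receptors, with 61.5 against 48.4 CPM. CRYAB, the only named member of 11 listed nerve and glia genes, which muscle also expresses, stood at 12.6 CPM in NS 242, 94.8 in SS 274, 48.4 in SS 294 and 11.5 in SS 299 against 5.51 to 27 CPM, highest in SS 274 and SS 294.

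Shedding status was followed within the epithelium-rich and epithelium-poor libraries only as values, and SS was not tested against NS within either side. NS 242 was the single epithelium-poor NS library, and the epithelium-rich SS libraries, with 1136 and 1171 CPM of EPCAM, lay between the highest and lowest of the epithelium-rich NS libraries, 1195 and 817 CPM. With status as a covariate, limma called 271 genes higher and 439 lower in the epithelium-poor libraries, 188 and 408 of them among those called without it. Within the 5 SS libraries alone, 3 against 2, limma called no gene, with 3042 genes at an unadjusted p below 0.05, and no other tool was run on them. CCR7 stood at 160.4 CPM in NS 242, at 8.72 to 14.2 CPM in the other 3 NS libraries and at 0.4 to 5.84 CPM in the 5 SS libraries. CXCL13 stood at 293 CPM in NS 242, at 66.6 to 75.3 CPM in the other NS libraries and at 0.801 to 16.6 CPM in the SS libraries. CCR7 and CXCL13 are among the genes the study reported lower in SS, and they do not stand for all lymphoid genes. For CCL19, the other NS libraries stood at 22.1 to 22.6 CPM and the SS libraries at 3.87 to 25.2 CPM. These 2 ranges were 14.7 to 47.5 and 2.67 to 17.7 CPM for CD22, and 19.5 to 24.6 and 2.67 to 28.9 CPM for CD3G, so they overlapped.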

How the data were processed

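Whole rectal tissue of 9 steers (5 SS, 4 NS) was sequenced as stranded, rRNA-depleted paired-end libraries. The authors deposited CPM per Ensembl gene. The submitters' processing notes name TopHat2, HTSeq and edgeR with the UMD3.1 build without versions, and do not state which of them produced the CPM. All 24616 genes and 9 columns were used. With a tolerance of 0.01 reads, 100% of the values equalled a whole number of reads, which gave back the counts. Libraries were divided by AGR2 in the deposited CPM.

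The main test was limma 3.58.1 in R 4.3.3, applied to log2(CPM + 0.5) with moderated variances that follow a trend in mean level. It took in the 15409 genes that reached 0.5 CPM in 4 or more libraries, and p was adjusted over all of them (Benjamini-Hochberg). On the recovered reads, edgeR 4.0.16 called 575 genes higher and 481 lower, and DESeq2 1.42.0 called 1338 and 987. Single genes had an exact two-sided permutation test over the 126 divisions. Python 3.11.15 with numpy 2.4.6, pandas 2.3.3 and matplotlib 3.10.9 made the tables and figures. Scripts were tested on simulated data. Alternatives were other pseudocounts, filters, scalings, variance models and tools, libraries thinned to 1 total, status as a covariate, SS only and the omission of each library.

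Names came from the supplementary gene tables of the study and covered 2052 identifiers. Of these names, 58 came from its genes called different between SS and NS in these libraries, and 1994 from its core transcriptome. Genes are named as the 4 markers, the 3 list members with the highest mean CPM, the 10 named called genes with the largest difference in each direction without overlap, 4 genes of at least 10 CPM highest in each epithelium-poor library, 3 reference genes, and further list members where said. Of the genes so chosen, 2 are not reported here. The libraries and gene lists were chosen with earlier results of these data known. No list was tested as a set.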

Additional observations from a re-analysis of the deposited data

Results flagged for a closer look

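In all, 214 groups of values were looked at. They were the genes taken by the naming rule, AGR2 among them, on the log2 scale, reads and genes detected, each in the 4 epithelium-poor and the 5 epithelium-rich libraries. Further list members were not looked at. Of the 214 groups, 12 had a library far from the others, as judged by its gap to the nearest one as a share of the range (Dixon's criterion). Chance gives this in about 1 in 20 such groups. In the epithelium-poor libraries this was so only for SESN3, where SS 299 was low at 100.1 CPM with a gap of 0.902 of the range, the other 3 lying at 235 to 258 CPM.

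In the epithelium-rich group, NS 152 was high in S100A8, S100A9 and S100A12, with gaps of 0.887, 0.843 and 0.759 of the range and levels of 117, 112 and 677 CPM. NS 165 was high in LPL at 171 CPM (gap of 0.72) and low in HSPA5 at 637 CPM (gap of 0.737). SS 287 was low in DPYSL3, EVPL, FBN1, GAPDH and RBM25, at 26.4, 2.2, 545, 289 and 85 CPM, with gaps of 0.775, 0.765, 0.728, 0.753 and 0.744. SS 310 was high in UAP1 at 417 CPM (gap of 0.718).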

How the results depend on the processing

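The counts of genes called (440 higher, 783 lower) depended on the processing. Both stayed within 1.5 times these with pseudocounts of 0.1 or 1, a filter of 1 CPM, median-of-ratios or TMM scaling, thinning to 1 total, no intensity trend and no fold threshold. Without the filter, with more genes tested (21414), 250 were higher. With sample quality weights 14 were higher and 129 lower, with edgeR 481 lower, with DESeq2 1338 higher, with status as a covariate 271 higher and 439 lower, and within the SS libraries, which are fewer, 0 and 0 by limma (3042 at an unadjusted p below 0.05). Leaving out each library in turn gave 0 to 856 higher and 0 to 1361 lower. The cause of these changes was not tested. Of 104 tested genes taken by the naming rule, 29 changed the sign of their difference under at least 1 alternative, none of them called. A difference is printed for the 55 that were called, at an unadjusted p below 0.05, markers or reference genes, and none of these changed sign. This choice of which differences to print was made after the changes of sign were seen, so the 0 of 55 is no sign of stability, and no difference is printed for the other 49 or for further list members. No paired analysis was possible because each steer gave 1 library. Counting error limits genes below the CPM of 3 reads, which was higher in the epithelium-poor libraries.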
